A study of Homo sapiens with 8 samples.

Results

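The transcripts described here are those of 35 genes of DNA replication and S phase, measured in sorted populations of 4 human tumour cell lines. They were taken by function: each is a gene that a dividing cell uses to license, start, carry out or time the copying of its DNA. A gene was read from a probe set whose platform annotation named that gene alone, and the probe set of highest mean was used where there was more than 1. All 35 genes were found among the 18417 named genes of the table, and 33 of them had 1 probe set, while UHRF1 and CLSPN had 2 each.

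Each line was sorted by fluorescence with an antibody to ABCB5, a membrane transporter of the ATP-binding cassette family that the series title connects with resistance to apoptosis, and RNA of each sorted fraction went onto its own Affymetrix Human Gene 1.0 ST array. The 4 ABCB5-positive arrays and the 4 ABCB5-negative arrays come from the same lines, COLO741 and HCT116 (both labelled colon carcinoma), SW620 (a lymph node metastasis of colon carcinoma) and HT29 (colon adenocarcinoma), grown in RPMI medium with serum and with no drug or genetic change stated. The sample labels and the series design text differ over 1 line, SW620 in the first and SW480 in the second, and the sample labels were followed. Each line gave 1 array per population, and nothing in the labels speaks of repeat cultures, so a p-value below measures the spread between these arrays, which may be partly technical.

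Before a cell copies its genome, the origin recognition complex with CDC6 and CDT1 loads the ring-shaped MCM2-7 helicase onto DNA. At the start of S phase, CDC45 and the GINS complex join the ring and turn it into a working helicase, after which primase, polymerases, the sliding clamp PCNA and its loader RFC copy both strands. Most of these genes are targets of E2F transcription factors, which are held back by the retinoblastoma protein until cyclin-dependent kinases release them, and cyclin E with CDK2 is the kinase that acts at the entry into S phase. Their transcripts are widely used as a sign that cells are cycling, since they are low in resting cells.

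All 35 genes were expressed in every array. Their log2 levels lay between 8.88 (GINS4) and 13.65 (GINS2), above 7.5. That limit is the 95th percentile of 360 probe sets of olfactory receptor genes, most of them little expressed outside the nose, and was taken as background. The array medians lay between 8.03 and 8.10, and the 2 arrays of a line correlated at 0.993 to 0.996 over all probe sets. The transcript of ABCB5 itself went against the sort in COLO741, with a log2 level of 8.14 on the array labelled ABCB5-positive against 9.42 on its ABCB5-negative counterpart. Elsewhere it was at background on all 6 arrays (5.24 to 5.69). In COLO741 all 9 measured melanocyte markers were above background on both arrays, with mean log2 levels of 12.17 and 12.44, against 6.89 to 7.10 in the other lines, while the epithelial marker EPCAM stood at 5.36 and 6.43 there, against 13.32 to 13.77 elsewhere. The markers of COLO741 thus go against its colon label, although 5 of 12 epithelial markers were above background on each of its arrays. Since these are bulk samples, fewer cells of a type and less RNA per cell cannot be told apart. The ABCB5-positive array of SW620 had 8 of 10 leukocyte markers above background, against 2 to 5 on the other 7 arrays. PTPRC, the pan-leukocyte marker, measured 6.96 there, under that limit too, against 4.82 to 5.11 on the other 7. Between the populations, the markers of smallest unadjusted p had mean differences of 0.16 (MC1R) and -0.29 (MLANA) for melanocytes, -0.15 (LGALS4) and -0.19 (GPA33) for epithelium and 0.51 (LAPTM5) and 0.17 (CD79A) for leukocytes. Over the lines, the marker ranges were widest for TYRP1 (8.30) and PMEL (7.30), EPCAM (7.84) and KRT20 (6.49), and CD68 (2.75) and LAPTM5 (1.91).

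A sequence pattern was more frequent in the promoters of these genes than in those of all genes tested. The pattern itself was not used to choose them. Most of them are E2F targets, though, and the pattern is that of an E2F site, so its excess is not independent of the choice. A promoter window of 250 bases before to 50 bases after the gene's start was listed in RefSeq (GRCh38.p14) for 31 of the 35 genes. The letters TTTNNCGC, the pattern of an E2F site, were found on either strand in 18 of the 31 windows (58.1%), against 9.26% of the windows of all genes tested and 6.9% of all 27305 windows. The CCAAT box was found on either strand in 64.5% of the members' windows, against 35.9% of those of all genes tested, and GGGCGG, the GC box, in 77.4%, against 63.1%. Matches may overlap each other, and a match is a string of letters and not a measured site. Of the 31 windows, 8 held the E2F pattern more than once. Shown are the windows of the 3 genes among those that differed most between the lines whose window holds the pattern (MCM2, POLE2 and POLA1), that of E2F1 with its 4 matches, and that of CCNE1, the gene with the widest spread over the lines and no match. They are written 5′ to 3′ on the gene's strand, with matches to TTTNNCGC in either direction in capitals.
MCM2, chr3:127598161-127598460, plus strand: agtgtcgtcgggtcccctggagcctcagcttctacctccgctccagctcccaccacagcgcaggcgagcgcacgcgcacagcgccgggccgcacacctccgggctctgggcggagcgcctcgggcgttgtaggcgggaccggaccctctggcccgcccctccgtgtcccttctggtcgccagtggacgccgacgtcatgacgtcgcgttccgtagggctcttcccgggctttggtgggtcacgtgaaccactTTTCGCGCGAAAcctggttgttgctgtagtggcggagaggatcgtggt
POLE2, chr14:49688165-49688464, minus strand: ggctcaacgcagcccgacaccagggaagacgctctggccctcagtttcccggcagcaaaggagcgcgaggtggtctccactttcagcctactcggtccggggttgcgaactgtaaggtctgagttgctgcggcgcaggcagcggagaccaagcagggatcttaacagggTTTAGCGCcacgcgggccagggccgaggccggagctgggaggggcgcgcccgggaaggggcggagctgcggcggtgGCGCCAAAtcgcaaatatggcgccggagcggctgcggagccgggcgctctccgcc
POLA1, chrX:24693668-24693967, plus strand: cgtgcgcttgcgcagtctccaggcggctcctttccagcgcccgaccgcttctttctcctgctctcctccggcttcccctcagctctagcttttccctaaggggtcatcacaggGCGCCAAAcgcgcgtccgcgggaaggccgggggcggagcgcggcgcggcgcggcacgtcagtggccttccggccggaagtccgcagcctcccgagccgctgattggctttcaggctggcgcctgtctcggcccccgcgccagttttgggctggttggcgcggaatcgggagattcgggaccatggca
E2F1, chr20:33686336-33686635, minus strand: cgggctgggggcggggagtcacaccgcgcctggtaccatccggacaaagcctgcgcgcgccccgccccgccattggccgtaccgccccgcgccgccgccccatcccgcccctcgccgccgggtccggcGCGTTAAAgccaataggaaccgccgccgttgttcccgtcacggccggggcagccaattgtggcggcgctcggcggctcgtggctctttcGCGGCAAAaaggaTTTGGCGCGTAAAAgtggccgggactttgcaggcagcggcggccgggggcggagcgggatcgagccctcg
CCNE1, chr19:29811741-29812040, plus strand: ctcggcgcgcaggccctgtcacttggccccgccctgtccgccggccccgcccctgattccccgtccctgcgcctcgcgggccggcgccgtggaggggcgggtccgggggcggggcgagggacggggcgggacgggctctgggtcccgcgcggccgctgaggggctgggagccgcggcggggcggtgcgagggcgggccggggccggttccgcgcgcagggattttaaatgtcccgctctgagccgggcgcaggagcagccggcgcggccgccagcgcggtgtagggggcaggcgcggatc

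The sorted populations were compared to see whether the replication genes go with ABCB5, and 0 of the 35 differed past the threshold in either direction. The test was limma with the line as a block and an adjusted p of 0.05 over 16910 genes tested, by which 0% of all genes were called as well, at a lowest adjusted p of 0.898. An unadjusted p under 0.05 was reached by 1 member, CDC45, and by 4.4% of all genes. On average over the lines, 22 of the 35 differences were above 0, with a median of 0.03 on the log2 scale, against 48% of all genes tested and a median near 0. The differences ran from -0.19 (CCNE2) to 0.19 (CDC45). For 34 of the 35 genes the 95% interval of the difference lay wholly within 0.5 log2 units of 0, with the lowest bound at -0.51 for CCNE2 and the highest at 0.41 for MCM10. Without COLO741 the median was -0.03 and 13 of 35 differences were above 0, so that the sign of the median rests on that line, whose ABCB5 transcript opposes its labels.

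Line by line, the replication genes leaned in different directions. In COLO741, 28 of 35 were higher on the array labelled ABCB5-positive, with a median difference of 0.15, against 45.6% of all genes and a median of -0.02. In SW620, 20 of 35 were higher, against 54% of all genes, with a median of 0.03 beside 0.02 over all genes. In HT29 it was 12 of 35, against 48.6% of all genes, with a median of -0.05. In HCT116 it was 9 of 35, against 45.6% of all genes, with a median of -0.03, while the medians of all genes were near 0 and -0.01. HCT116 was also the line in which the members moved least, 29 of 35 staying within 0.1 log2 units of 0, against 60.9% of all genes. With 1 array per population in a line, these counts describe the arrays and carry no test.

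**Figure D1:**
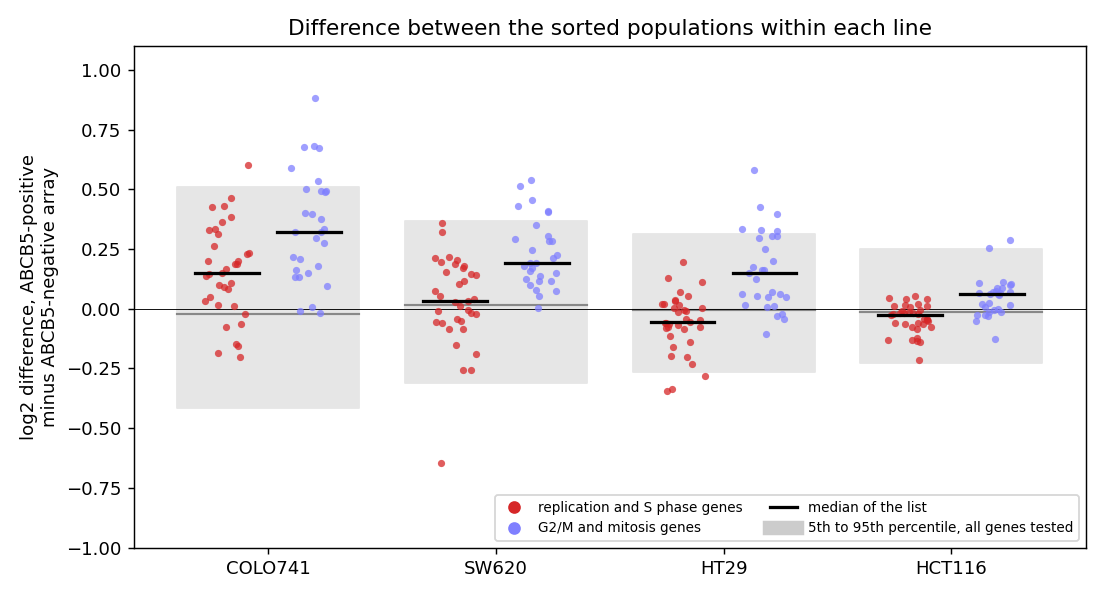
Log2 difference, ABCB5-positive minus ABCB5-negative array, within each line for each of the 35 replication and S phase genes (red) and for 29 G2/M and mitosis genes (blue). Black bars mark list medians, grey bands the 5th to 95th percentile of all genes tested and grey lines their median. The replication medians are above 0 in COLO741 (0.15) and SW620 (0.03) and below 0 in HT29 (-0.05) and HCT116 (-0.03), while the G2/M medians are above 0 in all 4 lines.

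Among the genes that turn the MCM ring into a helicase, CDC45 had the smallest unadjusted p. On the ABCB5-positive arrays of COLO741, SW620, HT29 and HCT116 it measured 11.99, 11.88, 12.18 and 11.44, against 11.63, 11.67, 12.05 and 11.39 on the ABCB5-negative arrays of the same lines. The positive array was the higher one in all 4 lines, though the groups overlapped, and the difference was 0.19 ± 0.14 (SD, n = 4), or 1.14-fold, at an adjusted p of 0.898 from limma. GINS1, a subunit of the GINS complex, measured 11.99, 12.34, 12.26 and 12.13 in COLO741, SW620, HT29 and HCT116 on the ABCB5-positive arrays, against 11.91, 12.12, 12.06 and 12.21 on the ABCB5-negative ones. Its difference of 0.10 ± 0.14 (SD, n = 4) was above 0 in 3 lines. The other GINS subunits and MCM10, which helps to activate the helicase, had means of 0.09 to 0.11. In COLO741 their differences ranged from 0.20 for GINS4 to 0.60 for MCM10. All 6 genes of helicase activation had a mean above 0, with a median of 0.11, and 3 of 6 without COLO741, where the mean of MCM10 was -0.05.

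The licensing genes and the MCM ring itself gave mixed signs. MCM6, a subunit of the ring, measured 11.09, 11.94, 11.41 and 11.92 in COLO741, SW620, HT29 and HCT116 on the ABCB5-positive arrays, against 11.24, 11.94, 11.64 and 11.99 on the ABCB5-negative arrays, a difference of -0.11 ± 0.10 (SD, n = 4). It was the only member with the positive array lower in all 4 lines, by as little as -0.01 in SW620. CDC6, a loader of the ring, measured 12.61, 12.04, 12.42 and 12.87 in the same order on the ABCB5-positive arrays, against 12.67, 12.30, 12.41 and 13.00 on the ABCB5-negative ones, or -0.11 ± 0.11 (SD, n = 4). CDT1, its partner in loading, measured 10.15, 10.22, 10.32 and 11.07 on the ABCB5-positive arrays, against 9.76, 10.17, 10.27 and 11.08 on the ABCB5-negative arrays. The CDT1 difference of 0.12 ± 0.18 (SD, n = 4) shrank to 0.03 without COLO741. ORC1 and ORC6, subunits of the origin recognition complex, had means of -0.03 and 0.11, and MCM2, MCM3, MCM4, MCM5 and MCM7 lay between -0.01 and 0.07.

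For the fork machinery and its supply the mean differences lay between -0.08 and 0.07. The polymerase genes POLA1 and POLE2 and the primase gene PRIM1 had means of 0.03, -0.08 and -0.01. PCNA and FEN1, the clamp and the nuclease that trims Okazaki fragments, had -0.06 and 0.01, and the clamp loader subunits RFC2, RFC3, RFC4 and RFC5 lay between 0.04 and 0.07. RRM1, the large subunit of the reductase that makes deoxynucleotides, was higher on the positive array in all 4 lines, at 0.06 ± 0.04 (SD, n = 4), as was RFC2 at 0.05 ± 0.06. RRM2, the small subunit, had 0.07, and UNG, which removes uracil from DNA, -0.08. With CDC45 and MCM6, that makes 4 members of 1 sign in all 4 lines, against 13.4% of all genes tested. For 0 of the 35 did the levels of the 2 populations fail to overlap, against 0.378% of all genes.

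Histone and chromatin partners of replication and the regulators of entry into S phase did not separate the populations either. CHAF1B, a subunit of the chromatin assembly factor that follows the fork, had a mean of -0.03, and UHRF1, which carries DNA methylation through replication, had -0.05. SLBP, which binds the stem-loop of histone mRNAs, was within 0.01 of 0. The transcription factor gene E2F1 had -0.03, CCNE1, the gene of cyclin E1, 0.01, and CLSPN, an adaptor of the replication checkpoint, 0.04. CCNE2, the gene of cyclin E2, measured 11.94, 11.21, 11.04 and 12.18 in COLO741, SW620, HT29 and HCT116 on the ABCB5-positive arrays, against 11.72, 11.86, 11.24 and 12.31 on the ABCB5-negative arrays. Its gap of -0.65 in SW620 was the widest of any member in any line, and its mean was -0.19 ± 0.36 (SD, n = 4). The ABCB5-positive array of SW620 is the one that carried leukocyte markers, whose part in this value was not tested.

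Genes of mitosis, which follow S phase in the cycle, gave another picture on the same arrays. Of 29 G2/M and mitosis genes tested, 28 were above 0 (96.6%), with a median of 0.18, against 48% of all genes and a median near 0. An unadjusted p under 0.05 was reached by 12 of the 29 (41.4%), against 4.4% of all genes, while 0 passed the adjusted threshold. UBE2C, an enzyme of mitotic exit, measured 0.47 ± 0.13 and CDK1, the kinase of mitotic entry, 0.49 ± 0.28 (SD, n = 4 each). By line, in the same order as above, the G2/M medians were 0.32, 0.19, 0.15 and 0.06, beside replication medians of 0.15, 0.03, -0.05 and -0.03. The difference between the lists was not tested, and no p is given for either.

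The wider replication pathway, in 83 genes tested that are not among the 35, also had 0 genes past the threshold. An unadjusted p under 0.05 was reached by 3 of them (3.61%), against 4.4% of all genes. Above 0 were 58 (69.9%), with a median of 0.04, against 48% of all genes. Without COLO741 it was 43, against 8594 of all 16910 genes. Other licensing and initiation genes had a median of 0.01 over 20 genes, with TICRR, which helps to load CDC45, at 0.25 ± 0.15 (SD, n = 4) and RECQL4, a helicase of initiation, at 0.19 ± 0.16. Other polymerase and fork genes had a median of 0.05 over 22 genes, with LIG1, the ligase that joins Okazaki fragments, at 0.15 ± 0.09 and RPA3, a subunit of the single-strand binding protein, at -0.13 ± 0.07. Nucleotide and chromatin genes had a median of 0.01 over 14 genes, with TK1, a thymidine kinase, at 0.16 ± 0.10 and ASF1B, a histone chaperone, at 0.14 ± 0.12. Other regulators of G1/S and the checkpoint had a median of 0.05 over 27 genes, with CCND3, the gene of cyclin D3, at 0.18 ± 0.18 and TFDP2, a partner of E2F proteins, at 0.13 ± 0.09.

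The lines themselves differed far more than the populations. The 2 arrays of a line are its sorted populations, so p-values between lines measure the spread between those and not between cultures. With limma and the population as covariate, 30 of the 35 genes differed among the 4 lines at an adjusted p of 0.05 by the F test (85.7%), against 67.2% of all genes tested. The 5 that did not pass were MCM7 (adjusted p = 0.315), GINS1 (0.155), RFC2 (0.0703), FEN1 (0.0691) and RFC3 (0.0666). For every member the range of the 4 line means was wider than the widest gap between the 2 arrays of a line. How many of all genes tested share this was not counted. The range of line means had a median of 0.78 log2 units, against 0.64 over all genes. It reached 1 log2 unit in 9 members (25.7%), against 31.5% of all genes. The member of widest range, CCNE1, stood at rank 2497 of the 16910 genes by that measure.

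**Figure D2:**
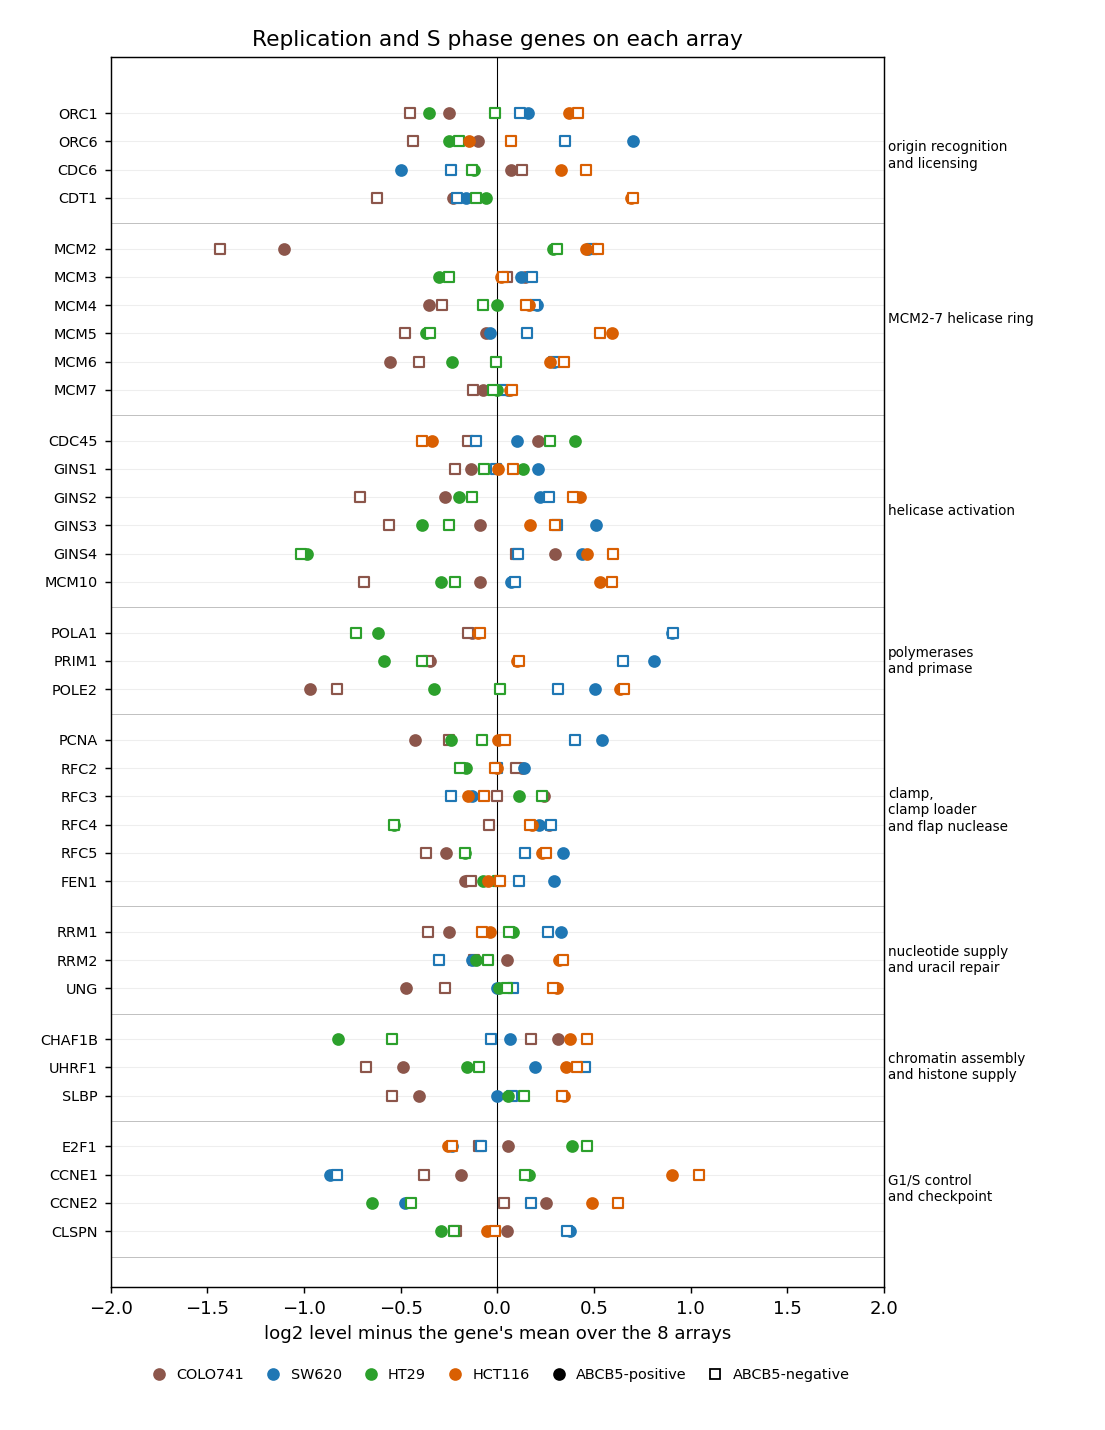
Log2 level of each member on each of the 8 arrays, minus its own mean over the arrays, ordered by role. Filled circles are ABCB5-positive and open squares ABCB5-negative arrays, coloured by line. Both arrays of a line sit close together, COLO741 lies to the left for most genes, and HCT116 to the right.

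HCT116 and SW620 had most replication genes high, COLO741 and HT29 had most low. HCT116 was the highest of the 4 lines for 19 of the 35 genes and SW620 for 12, against 28.3% and 21.6% of all genes. The lowest line was COLO741 for 19 and HT29 for 10, against 30.3% and 21.9% of all genes. Set against the mean of the other 3 lines, the median of the members was 0.32 in HCT116, 0.20 in SW620, -0.21 in HT29 and -0.36 in COLO741, while the medians of all genes lay between -0.05 and 0.04. Without its ABCB5-negative array the median in COLO741 was -0.21, and without its ABCB5-positive array that in HT29 was -0.12. Counting members past an adjusted p of 0.05 with at least a 1.5-fold difference, HCT116 had 8 higher (22.9%) and 0 lower, against 9.54% and 10.7% of all genes (20.3% in both directions). SW620 had 5 higher (14.3%) and 1 lower, against 11.3% and 10.5% (21.8% in both). HT29 had 6 lower (17.1%) and 0 higher, against 12.6% and 9.98% (22.6% in both), and COLO741 6 lower (17.1%) and 0 higher, against 12.9% and 14.1% (27% in both). The lower calls in HT29 and COLO741 and the higher calls in SW620 were 6, 6 and 5 genes. Their shares (17.1%, 17.1% and 14.3%) lay near those of all genes (12.6%, 12.9% and 11.3%) and are not read as a trait of the members. HT29 and COLO741 had 0 higher calls, against 9.98% and 14.1% of all genes. The 4 comparisons share their arrays, so they are not independent of each other. Each is made against the mean of 3 lines, so a member can pass without differing from every other line. Of the 8 in HCT116, MCM2, GINS4, POLE2, MCM10 and CCNE2 did not differ past the threshold from the next highest line. Their adjusted p there was 0.0724 to 0.959 from limma. CDT1, CCNE1 and MCM5 differed past it from each of the other lines. Without the ABCB5-positive array of COLO741 its count was 11, and without the ABCB5-negative array of HCT116 the count there was 4.

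The subunits of the MCM2-7 ring had their high and low points in different lines. MCM2 measured 10.65 and 10.32 on the arrays of COLO741, against 12.22 and 12.24 in SW620, 12.04 and 12.06 in HT29 and 12.21 and 12.27 in HCT116. COLO741 stood alone at the low end, -1.69 below the mean of the other lines (SE 0.10, 3.22-fold lower, adjusted p = 2.41e-05 from limma), while SW620, HT29 and HCT116 did not differ pairwise past the threshold (adjusted p of 0.268 to 0.959). SW620 and HCT116 were above the mean of the other lines by 0.64 and 0.65, a mean that includes the low COLO741. Those values fell short of 1.5-fold at 0.58 without the ABCB5-negative array of COLO741 and at 0.57 without that of HCT116. MCM6 was also lower in COLO741, by a log2 difference of -0.64, and MCM4 by -0.42, short of 1.5-fold. MCM5 measured 12.31 and 12.25 on the arrays of HCT116, against 11.66 and 11.24 in COLO741, 11.68 and 11.87 in SW620 and 11.35 and 11.37 in HT29. There HCT116 stood above, by 0.75 (SE 0.12, 1.69-fold, adjusted p = 0.00311). MCM3 had its low point in HT29, at -0.36, and MCM7 spanned only 0.16 log2 units over the lines.

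Among the licensing factors HCT116 stood out for CDT1, which measured 11.07 and 11.08 there, against 10.15 and 9.76 in COLO741, 10.22 and 10.17 in SW620 and 10.32 and 10.27 in HT29. Its level in HCT116 was 1.9-fold above the mean of the other lines (log2 difference 0.93, SE 0.10, adjusted p = 5.22e-04), and the other 3 lines did not differ pairwise past the threshold. ORC6 was high in SW620, at 11.07 and 10.72, against 10.27 and 9.93 in COLO741, 10.12 and 10.17 in HT29 and 10.22 and 10.44 in HCT116, or 1.63-fold (adjusted p = 0.00534). Without the ABCB5-positive array of SW620 the ORC6 value was 0.54, with an adjusted p of 0.0755. ORC1 and CDC6 were highest in HCT116, at 0.53 each against the other lines, just short of 1.5-fold. CDC6 had its lowest level in SW620, by -0.49.

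The helicase activators differed in which line was low. GINS4 measured 8.91 and 8.88 on the arrays of HT29, against 10.19 and 9.99 in COLO741, 10.33 and 10.00 in SW620 and 10.36 and 10.49 in HCT116. It was 2.52-fold lower in HT29 than in the other lines (log2 difference -1.33, SE 0.10, adjusted p = 9.89e-05), and no pair among the other 3 lines passed. In HCT116 GINS4 was 1.64-fold above the mean of the other lines, which includes the low HT29. That log2 difference of 0.71 was 0.56 without the ABCB5-negative array of HCT116. GINS4 did not differ past the threshold between HCT116 and COLO741 or SW620 (adjusted p = 0.0645 and 0.144 from limma). Its partners in the same complex did not share that pattern. GINS1 lay within a range of 0.28, and GINS3 was level in HT29 and COLO741 with means of 10.66 in both. GINS2 in COLO741 was 1.57-fold below the mean of the other lines (-0.65, or -0.42 without the ABCB5-negative array of COLO741). GINS2 did not differ past the threshold between COLO741 and HT29 (adjusted p = 0.106 from limma). MCM10 measured 12.32 and 12.38 in HCT116, against 11.70 and 11.10 in COLO741, 11.86 and 11.88 in SW620 and 11.50 and 11.57 in HT29, or 1.68-fold higher in HCT116 (adjusted p = 0.00656). Without the ABCB5-negative array of HCT116 that adjusted p was 0.0957. CDC45 ran the other way, lowest in HCT116 at -0.48 and highest in HT29 at 0.45, both short of 1.5-fold.

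All 3 polymerase and primase genes had ranges of line means over 1 log2 unit, from 1.22 (PRIM1) to 1.58 (POLA1). POLA1, the catalytic subunit of the polymerase that starts each strand, measured 12.04 and 12.05 in SW620, against 11.01 and 10.99 in COLO741, 10.52 and 10.41 in HT29 and 11.04 and 11.05 in HCT116. SW620 lay 2.32-fold above the other lines (adjusted p = 3.78e-05) and HT29 1.87-fold below (adjusted p = 1.06e-04), while COLO741 and HCT116, the neighbours in the middle, did not differ past the threshold (adjusted p = 0.685). PRIM1, the primase that works in the same complex, also had its highest mean in SW620 (12.44) and its lowest in HT29 (11.22). PRIM1 lay 1.97-fold above the mean of the other lines in SW620 and 1.57-fold below it in HT29. The log2 difference of -0.65 in HT29 was -0.52 without the ABCB5-positive array. HT29 and COLO741 did not differ past the threshold for PRIM1 (adjusted p = 0.368 from limma). POLE2, a subunit of the leading-strand polymerase, measured 9.92 and 10.06 in COLO741, against 11.39 and 11.20 in SW620, 10.56 and 10.90 in HT29 and 11.52 and 11.54 in HCT116. Against the mean of the other lines it was 2.29-fold lower in COLO741 (adjusted p = 1.85e-04) and 1.81-fold higher in HCT116 (adjusted p = 0.00119). HCT116 and SW620 did not differ past the threshold (adjusted p = 0.209 from limma).

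The clamp and its loader varied less. PCNA measured 13.21 and 13.07 in SW620, against 12.24 and 12.42 in COLO741, 12.43 and 12.59 in HT29 and 12.67 and 12.71 in HCT116, or 1.55-fold higher in SW620 (adjusted p = 0.00164). That log2 difference of 0.63 was 0.50 without the ABCB5-positive array of SW620. RFC4 measured 12.63 on both arrays of HT29, against 13.12 to 13.44 on the other 6 arrays, and was 1.63-fold lower there (adjusted p = 0.00113). RFC5 had a range of 0.56, and RFC2, RFC3 and FEN1 ranged over 0.29 to 0.36. UNG measured 11.13 and 11.33 in COLO741, against 11.60 and 11.68 in SW620, 11.61 and 11.65 in HT29 and 11.91 and 11.89 in HCT116, lowest in COLO741 by -0.49. RRM1 measured 12.73 and 12.62 in COLO741, against 13.31 and 13.24 in SW620, 13.06 and 13.04 in HT29 and 12.94 and 12.90 in HCT116, with SW620 highest. RRM2, whose protein pairs with that of RRM1, had its highest mean in HCT116 (13.04) and its lowest in SW620 (12.49). The 2 reductase subunits thus had different lines at the top.

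Chromatin genes were low in 1 line each. CHAF1B measured 10.57 and 10.85 in HT29, against 11.71 and 11.57 in COLO741, 11.46 and 11.36 in SW620 and 11.77 and 11.86 in HCT116, or 1.88-fold lower in HT29 (adjusted p = 5.28e-04). UHRF1 measured 11.68 and 11.49 in COLO741, against 12.36 and 12.62 in SW620, 12.01 and 12.07 in HT29 and 12.52 and 12.58 in HCT116, or 1.71-fold lower in COLO741 (adjusted p = 7.67e-04). That call rests on the brighter of the UHRF1 probe sets. The other one, with a mean level of 7.62, had line means of 7.56 to 7.65, and with both averaged the difference was -0.43. SLBP was 1.55-fold lower in COLO741 (adjusted p = 7.37e-04), with a log2 difference of -0.63, or -0.53 without the ABCB5-negative array.

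Both cyclin E genes were highest in HCT116, and their lowest lines differed. CCNE1 measured 11.48 and 11.62 in HCT116, against 10.39 and 10.20 in COLO741, 9.71 and 9.75 in SW620 and 10.74 and 10.72 in HT29. Every pair of lines differed past the threshold, in the order HCT116, HT29, COLO741 and SW620 from high to low (adjusted p of 4.57e-05 to 0.0138 from limma), and HCT116 stood 3.52-fold above SW620. CCNE2 was also highest in HCT116, with a mean of 12.25, but lowest in HT29 (11.14). HT29 and SW620 did not differ past the threshold for CCNE2 (adjusted p = 0.151 from limma). In HT29 it lay 1.66-fold below the mean of the other lines (adjusted p = 0.0095). Leaving out either array of HT29 raised that adjusted p to 0.0765 or 0.0803, and leaving out either array of HCT116 raised the one there to 0.0763 or 0.0983, against 0.00921 with both. In SW620 the 2 arrays of CCNE2 measured 11.21 and 11.86, as given above. E2F1 had its highest mean in HT29 (11.42), by a log2 difference of 0.57 over the other lines (adjusted p = 0.00167), and its lowest in HCT116 (10.75). CLSPN was highest in SW620, by 0.49 (adjusted p = 0.00487).

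**Figure D3:**
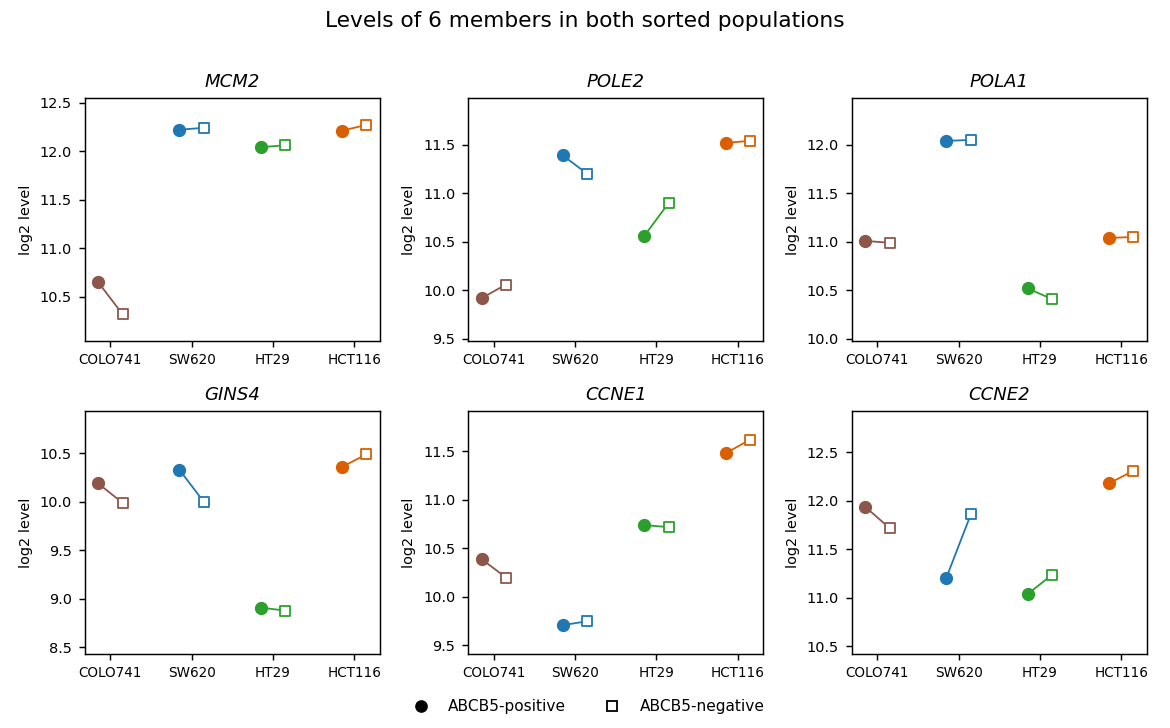
Log2 level of 6 members on the 8 arrays, with each line's ABCB5-positive array as a filled circle joined to its ABCB5-negative array, an open square. Each panel spans 2.5 log2 units. The low line is COLO741 for MCM2 and POLE2, HT29 for POLA1, GINS4 and CCNE2, and SW620 for CCNE1.

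The genes of all those tested whose levels were most like CCNE1 over the 8 arrays were ZDHHC7 (Pearson's r = 0.996), MYH15 (0.990), MVD (0.986), DPY19L4 (0.985) and FKBP2 (0.984). The 8 arrays hold 4 lines, whose 2 arrays share cells and culture, so these values describe the shared order of the lines and no more.

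Several of these line differences were shared by genes that lie beside the member on its chromosome. For each member the 10 genes tested on either side, in the order of the RefSeq annotation of GRCh38.p14, were summarised by their median, a measure added after the values of the members were seen. For GINS4 on chromosome 8 the 20 neighbours had a median of -1.10 in HT29 against the other lines, beside -1.33 for GINS4 itself, and 18 of the 20 were below 0. For CCNE2, also on chromosome 8, the neighbours' median was 0.75 in HCT116, beside 0.75 for CCNE2, with 17 of 20 above 0, and -0.33 in HT29, beside -0.73. The medians over the whole chromosome were -0.04 in HT29 and 0.16 in HCT116. For POLA1 on chromosome X the neighbours' median was 0.43 in SW620, beside 1.21, and -0.61 in HT29, beside -0.90. For POLE2 on chromosome 14 it was -0.48 in COLO741, beside -1.20, with 18 of 20 below 0. For CDT1 on chromosome 16 it was 0.36 in HCT116, beside 0.93, with 19 of 20 above 0.

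In all, 9 of the 26 line differences past the threshold had a neighbours' median of the same sign and at least 0.3 log2 units, and 0 had one of the other sign and that size. Another 11 had a neighbours' median within 0.1 of 0. Among these were MCM2 in COLO741, with a median of -0.01 over its neighbours on chromosome 3, and CCNE1 on chromosome 19, whose neighbours had 0.07 in HCT116 and 0.07 in SW620, beside 1.29 and -1.13 for CCNE1. PRIM1 on chromosome 12 had 0.06 in SW620, beside 0.98. These counts were not made over all genes tested, so no share stands beside them. Members short of the threshold could oppose their neighbours. In COLO741 MCM7 had -0.13, beside a neighbours' median of 0.39, and CCNE2 had 0.19, beside -0.34. What the neighbourhood contributes to the levels was not tested.

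**Figure D4:**
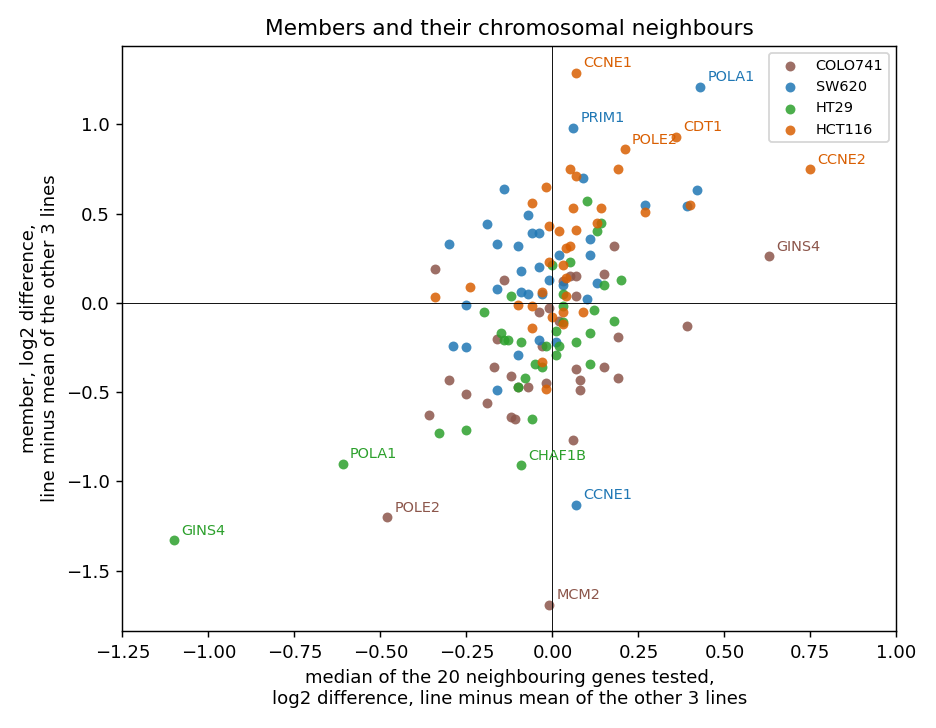
Each point is 1 member in 1 line, with its log2 difference from the mean of the other 3 lines on the vertical axis and the median of the same difference over its 20 chromosomal neighbours on the horizontal axis. GINS4 in HT29 lies at the lower left with its neighbours, while MCM2 in COLO741 and CCNE1 in HCT116 and SW620 lie far from 0 with their neighbours near 0.

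Of the rest of the replication pathway, 69 of 83 genes passed the F test (83.1%), against 67.2% of all genes. Past both limits, COLO741 had 19 of these lower (22.9%) and 4 higher (4.82%), against 12.9% and 14.1% of all genes. SW620 had 10 higher (12%) and 1 lower (1.2%), against 11.3% and 10.5% of all genes. HT29 had 4 higher (4.82%) and 9 lower (10.8%), against 9.98% and 12.6%. HCT116 had 11 higher (13.3%) and 10 lower (12%), against 9.54% and 10.7%. The medians of these genes against the other lines were 0.07 in HCT116, 0.16 in SW620, 0.02 in HT29 and -0.08 in COLO741. The members had 0.32, 0.20, -0.21 and -0.36 in the same order. CDC7, the kinase that fires licensed origins, measured 8.46 and 8.40 in COLO741, against 9.84 to 10.30 on the other 6 arrays. DNA2, a nuclease of Okazaki fragments, had its highest mean in SW620, by 1.40, and SUPT16H and HELLS, which remodel chromatin, were lower in COLO741 by -0.87 and -0.94. POLD4, a small subunit of polymerase delta, was higher in HT29 by 1.22 and lower in HCT116 by -1.48. CDK2, the partner of cyclin E, was higher in COLO741 by 1.47. CDKN1A, which encodes the inhibitor p21, was highest in HCT116 by 1.83 and lowest in SW620 by -1.38, as CCNE1 was. Of the 29 G2/M genes, 21 passed the F test (72.4%), against the same 67.2% of all genes. Their median against the other lines was within 0.12 of 0 in each line. In COLO741, 5 of the 29 were lower past both limits (17.2%) and 1 was higher (3.45%), against 12.9% and 14.1% of all genes. That share of lower calls was close to the 17.1% of the members. CCNB1 (-1.03 in COLO741) and PRC1 (0.59 there) had the widest ranges of line means in this list.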

How the data were processed

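The deposited table holds a log2 level for each of 33297 probe sets on 8 arrays. Affymetrix Expression Console is the tool named in the submitters' processing notes. Which version, summarisation and normalization the authors used is not stated in these sources, and the log2 scale was read from the range of 2.99 to 15.24. No further normalization was applied. Gene names came from the platform annotation, with symbols updated by gene identifier (19429 of 19460 probe sets naming 1 gene), while 1754 named several genes and 12083 were unnamed. Genes with a mean under 5.73, the median of 360 olfactory receptor probe sets, were left out, which left 16910.

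Tests used limma 3.58.1 in R 4.3.3, two-sided, with Benjamini-Hochberg adjustment over all genes tested. The populations were compared with the line as a fixed block, since a number marks 1 cell line. To check this pairing, the arrays' deviations from their group means correlated at 0.866 to 0.916 within a line. Lines were compared with the population as covariate, which leaves 3 residual degrees of freedom, and p-values there rest on 2 arrays a line. The fits were tested on simulated data. The number of arrays limits the precision.

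The members and lists were chosen with earlier results of these data known. All members are named, with values on every array for the 5 of smallest unadjusted p between populations and the 2 of widest line range in each role, and from each other list of replication, cycle or marker genes the 2 of smallest p and the 2 of widest range. The alternatives tried were the filter, the probe set, the scaling, the variance trend, the block, the covariate and leaving out each line or array.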

Additional observations from a re-analysis of the deposited data

Results flagged for a closer look

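Of 105 sets of 4 values (each member's levels in either population and its differences between them), 7 had 1 line far from the other 3, and chance alone gives about 1 such set in 20. The MCM2 levels of COLO741 were low in both populations, at 10.65 on the ABCB5-positive array, with the other lines at 12.04 to 12.22, and at 10.32 on the ABCB5-negative array, with the others at 12.06 to 12.27. The MCM2 difference between the populations was 0.33 in COLO741, with the others between -0.06 and -0.01. The MCM10 difference was 0.60 in COLO741, with the others between -0.06 and -0.02. On the ABCB5-positive arrays, ORC6 stood at 11.07 in SW620 with the others at 10.12 to 10.27, GINS4 at 8.91 in HT29 with the others at 10.19 to 10.36, and RFC4 at 12.63 in HT29 with the others at 13.34 to 13.43.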

How the results depend on the processing

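Between the populations, 0 members and 0 genes passed the adjusted threshold under each of the 12 alternatives, no replicate block and a random replicate block included. Without the block 0 members and 27 genes had an unadjusted p under 0.05, and with the random block 1 and 775. Of 420 recomputed member differences 29 took another sign and 0 moved by over 1 SD, and 9 of the sign changes came without COLO741. With quantile normalization 25 of 35 differences were above 0. Among the lines, leaving out 1 array at a time gave counts of members of 27 to 31 by the F test, 4 to 11 for COLO741, 4 to 8 for SW620, 5 to 7 for HT29 and 4 to 10 for HCT116, and the cause of the spread was not tested beyond the lone array left in a line. The count of 11 for COLO741 came without its ABCB5-positive array, and that of 4 for HCT116 without its ABCB5-negative array. Of the 26 line differences past both limits, 12 lost the call in some alternative and 0 reversed. CCNE2 lost it without either array of HT29 in that line and of HCT116 in that line, and UHRF1 with its probe sets averaged.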
